A study of Mus musculus with 8 samples.

Results

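The colony-stimulating factors (CSFs) and their receptors were followed in RNA from mouse bone marrow-derived macrophages. The genes were taken by name from the deposited table: the ligand genes Csf1, Csf2 and Csf3 and the receptor genes Csf1r, Csf2ra, Csf2rb, Csf2rb2 and Csf3r, which made 8 of 23366 genes. All 8 were listed in the table. Macrophages of C57BL/6 mice were either wild type or carried the knock-in allele Lsd1SA/SA. Per the labels this allele makes LSD1, a histone demethylase, defective in phosphorylation. All cells were at passage 1 and had been without serum for 24 h. They were left untreated or given lipopolysaccharide (LPS), the bacterial cell wall component sensed by Toll-like receptor 4, for 2 h at a label dose of 1 mg/ml. That gave 4 groups of 2 libraries: untreated wild type, wild type with LPS, untreated knock-in and knock-in with LPS. The age of the mice, any CSF in the medium, and whether the cells of a library were pooled are not stated in the labels. Nothing in them ties a replicate to its own culture or animal. The p-values below therefore reflect the spread between libraries alone, and that spread may be technical.

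CSF1 (M-CSF) acts through the receptor tyrosine kinase CSF1R and keeps macrophages alive and differentiating. CSF2 (GM-CSF) binds a receptor made of its own alpha chain, encoded by Csf2ra, and a common beta chain, encoded by Csf2rb, and signals mainly through JAK2 and STAT5. The mouse has a further beta chain, encoded by Csf2rb2, which pairs with the interleukin-3 receptor alpha chain. CSF3 (G-CSF) acts through CSF3R and is best known for driving neutrophil production. Activated macrophages make all of these ligands, and the mRNAs of Csf2 and Csf3 are classical targets of decay through AU-rich elements.

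Values are levels in the form of read counts over scaled library totals (TMM-scaled CPM), made by the authors, and are called levels here. They resolved into whole reads, 40379258 to 55595160 a library. The libraries labelled knock-in LPS stood apart in sex-linked genes. Levels of Xist, which silences an X chromosome in female cells, were 0.212 and 0.366 in these 2 and 315 to 437 in the 6 others. Added up, Ddx3y, Kdm5d, Uty and Eif2s3y, all on the Y chromosome, had 2 reads or fewer in each of the 6 and 4993 and 5122 reads in these 2. None of the 8 CSF genes lies on a sex chromosome, but every comparison that uses the libraries labelled knock-in LPS also compares libraries of different sex. Sex cannot be told apart from LPS within the knock-in, nor from genotype among the LPS libraries. Kdm1a, which encodes LSD1, was measured at 31.1 to 47.3 in all libraries, a level that does not check a phosphorylation defect. Of the 10 names fixed as macrophage markers, 9 were in the table, with summed levels of 15269 to 15320 in untreated wild type, 18338 to 18699 with LPS, 14969 to 15541 in untreated knock-in and 13054 to 13701 with LPS. With LPS, 3 of the 9 rose and 2 fell in wild type, and 1 rose and 6 fell in the knock-in. The wild-type calls depended on the scaling between libraries. Without scaling factors 1 rose and 6 fell there, and after quantile normalization 1 rose and 7 fell. On the scaled levels, the macrophage sum was highest where Csf1r was highest and lowest where Csf2ra was lowest. The part of this sum in the values of the receptor genes was not tested. Its largest part was Lyz2, with means of 7216 and 8756 in wild type and 7372 and 6239 in the knock-in, untreated and with LPS. Cd14 went from 130 to 1385 in wild type and from 133 to 66.2 in the knock-in. Others moved less in wild type: Cd68 was at 2222 and 2204, Mpeg1 at 2355 and 2379 and Mertk at 191 and 147. Over all libraries the summed levels of other cell types' markers were 21.8 to 71.6 for the stromal list, 28.5 to 42.8 for the endothelial list, 37.1 to 92.2 for the mast cell and basophil list, 47.0 to 83.0 for the lymphoid list, 160 to 245 for the erythroid and megakaryocyte list and 373 to 801 for the neutrophil list. Fewer cells of a type and less RNA per cell cannot be told apart in such bulk samples.

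Differences were tested with limma on log2(value + 1) over 11919 genes, and a gene was called at an adjusted p under 0.05. A log2 change on this scale understates the change of genes at low levels, so folds are given as ratios of the group mean levels. LPS in wild type moved all 8 CSF genes past the threshold, 6 higher and 2 lower, against 57.6% of all genes tested (26.8% higher, 30.7% lower). Csf2 and Csf3 passed the filter on low values only through wild type with LPS. Of the 6 members measured above the filter in every group, 4 were higher and 2 lower. With LPS in the knock-in, 4 of the 8 were called, 3 higher and 1 lower, against 56.7% of all genes (28.5% higher, 28.3% lower). Both shares of all genes are large, so a call alone says little here and the sizes below carry the description.

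Csf1, the ligand of CSF1R, was at 6.76 and 6.53 in the untreated wild-type libraries and at 129 and 137 with LPS. In the knock-in it was at 8.01 and 6.66 untreated and at 9.41 and 9.35 in the libraries labelled knock-in LPS. Wild type with LPS lay far above every other library, and the knock-in groups were separated by a narrow gap. Mean levels were 6.64 ± 0.164 (SD, n = 2) and 133 ± 5.59 (SD, n = 2) in wild type, a rise of 20.01-fold with a log2 change of 4.13 ± 0.088 (SE) and a limma adjusted p of 2.52e-22. In the knock-in the means were 7.34 ± 0.955 and 9.38 ± 0.0433 (SD, n = 2 each), a rise of 1.28-fold with a log2 change of 0.32 ± 0.088 (SE, limma adjusted p = 0.00356). That smaller rise missed the threshold without untreated knock-in replicate 2 (log2 change 0.20, limma adjusted p = 0.1004).

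Csf2, the ligand of the GM-CSF receptor, was at 0.0743 and 0.139 in untreated wild type, from 4 and 6 reads, and at 4.77 and 7.32 with LPS, from 190 and 324 reads. It had no read in either untreated knock-in library and, with LPS, 0 and 2 reads. Reads were thus concentrated in wild type with LPS, the group that lay above all others. The mean rose in wild type from 0.107 ± 0.0457 to 6.05 ± 1.80 (SD, n = 2 each), 56.8-fold, with a log2 change of 2.65 ± 0.17 (SE, limma adjusted p = 1.19e-12). No fold is given for LPS in the knock-in, because both groups were at or under the floor of 3 reads a library, which corresponds to mean levels of 0.0621 untreated and 0.0554 with LPS.

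Csf3, the ligand of the G-CSF receptor, had no read in untreated wild type and was at 3.77 and 2.80 with LPS, from 150 and 124 reads. In the knock-in it had no read untreated and 0 and 2 reads with LPS. Only wild type with LPS held more than the floor. Its mean of 3.29 ± 0.683 (SD, n = 2) was at least 52.5-fold higher than untreated wild type, taken against the floor of 3 reads per library, a mean level of 0.0626, and the limma adjusted p was 4.67e-11. Low counts were even numbers in 70.2% to 72.0% of cases, so mates of a pair may each have been counted. If so, the bound is 26.3-fold. Leaving out either LPS library of wild type put Csf2 and Csf3 under the filter, so their calls need both libraries.

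**Figure D1:**
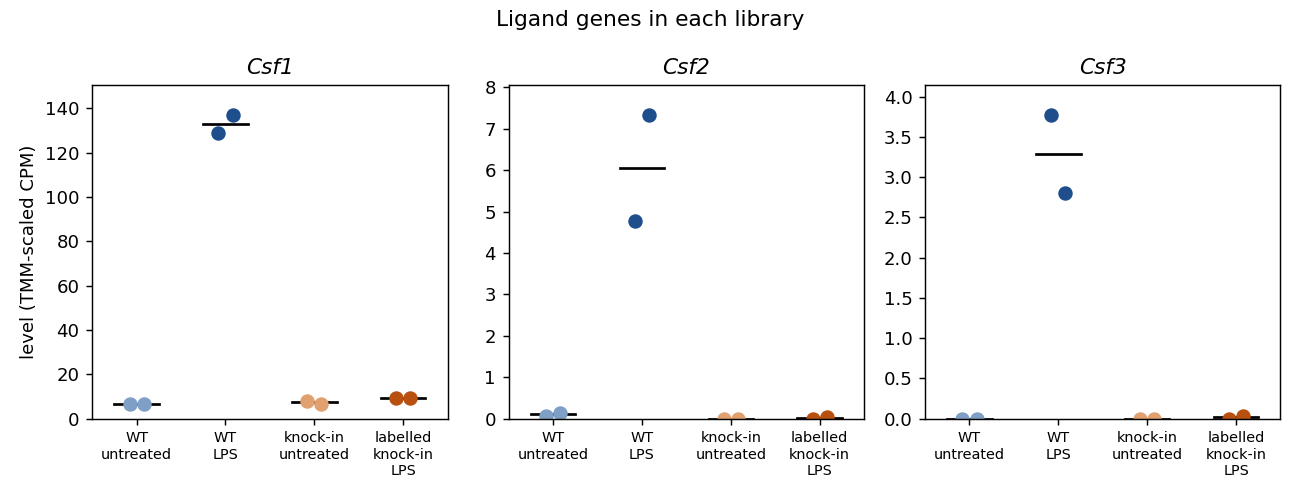
Levels of the ligand genes Csf1, Csf2 and Csf3 (vertical axes, TMM-scaled CPM, a scale of its own in each panel) in the 4 groups, with points for libraries and lines for group means. Wild type with LPS is the only group above 10 for Csf1 and above 1 for Csf2 and Csf3.

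With LPS, the ligand genes differed between genotypes by more than the spread of the libraries. In the libraries labelled knock-in LPS, Csf1 was 14.2-fold below wild type with LPS (log2 difference -3.69 ± 0.088 SE, limma adjusted p = 2.41e-21). For Csf2 and Csf3 the ratio was taken from reads summed over each group and divided by the scaled totals, to match its counting interval. For Csf2 the ratio of wild type to knock-in was 332, from 514 against 2 reads, with a 95% counting interval of 91.4 to 2748 and a limma adjusted p of 3.29e-13. For Csf3 it was 177, from 274 against 2 reads, with an interval of 48.5 to 1468 and a limma adjusted p of 3.65e-11. If reads were counted in pairs, the intervals widen to 59.0 to 13160 for Csf2 and 31.2 to 7039 for Csf3. These intervals cover counting error only. In this comparison all 8 CSF genes were called, 3 higher and 5 lower, against 75.4% of all genes tested (38.5% higher, 36.8% lower). Since Csf2 and Csf3 entered the test only through wild type with LPS, their direction was fixed by the filter, and the 6 members measured in every group were 3 higher and 3 lower.

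The promoter windows of Csf1 and Csf2 are printed as those of the ligand genes that had an entry, and that of Csf3r because it shares a motif with Csf1. They run from 250 bases before to 50 bases after the RefSeq start on GRCm38.p6, another build than the mm9 used for the counts, and 5 of the 8 members had an entry in the RefSeq table used here. Capitals mark motif matches.
Csf1, chr3:107760420-107760719, minus strand: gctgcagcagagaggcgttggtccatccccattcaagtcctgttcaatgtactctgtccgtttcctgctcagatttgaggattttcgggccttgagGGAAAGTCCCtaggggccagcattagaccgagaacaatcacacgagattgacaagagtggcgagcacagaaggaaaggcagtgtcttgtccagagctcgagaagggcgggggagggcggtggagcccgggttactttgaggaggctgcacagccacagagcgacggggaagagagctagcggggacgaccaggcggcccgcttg
Csf2, chr11:54249850-54250149, minus strand: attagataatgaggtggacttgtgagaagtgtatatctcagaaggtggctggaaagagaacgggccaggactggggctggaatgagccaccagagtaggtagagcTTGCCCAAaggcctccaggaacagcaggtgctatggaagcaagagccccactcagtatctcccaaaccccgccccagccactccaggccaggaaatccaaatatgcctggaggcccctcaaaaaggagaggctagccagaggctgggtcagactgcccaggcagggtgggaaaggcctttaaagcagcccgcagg
Csf3r, chr4:126024409-126024708, plus strand: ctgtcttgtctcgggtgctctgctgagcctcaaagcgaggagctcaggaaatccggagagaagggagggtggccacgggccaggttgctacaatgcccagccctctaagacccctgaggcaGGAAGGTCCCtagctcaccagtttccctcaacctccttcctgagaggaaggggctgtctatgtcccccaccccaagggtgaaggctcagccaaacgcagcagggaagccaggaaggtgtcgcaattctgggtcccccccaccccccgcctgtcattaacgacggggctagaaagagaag

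Both strands of the 5 windows were searched for the kB consensus, which NF-kB dimers bind, and for GAGATTCC, TGANTCA, TTNNGNAA and TATAAA. The Csf1 window held a match to the kB consensus, which reads GGAAAGTCCC on the printed strand and starts at -154 from the start site. The Csf3r window held another, GGAAGGTCCC at -129. The kB consensus was found in 8.46% of 32851 promoter windows of the same length. The part of these matches in the changes of Csf1 and Csf3r with LPS was not tested. The Csf2 window held TTGCCCAA at -145, a reverse-strand match to TTNNGNAA. That pattern was also in the windows of Csf2ra and Csf2rb2, so in 3 of the 5, and is common enough to occur in 40.7% of windows. No window of the 5 held GAGATTCC (0.904% of all windows), TGANTCA (7.81%) or TATAAA (13.6%), which says only that these letters are not in these windows. The last 50 bases of the window were found in a GENCODE transcript for 4 of the 5 genes, Csf2 being the exception, so its start may differ from that of the transcript.

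The 3′ untranslated regions differed in ATTTA, the core of AU-rich elements. It was counted 9 times in the 317 bases of Csf2, 6 times in the 669 bases of Csf3, 4 times in the 2111 bases of Csf1 and 3 times in the 1669 bases of Csf1r. The other 4 receptor genes had 0. Of 20633 coding genes, 7.19% had at least as many as Csf2, 14.7% as Csf3 and 24.9% as Csf1. The densest 30 bases of Csf2 and Csf3 are shown for the runs of ATTTA, in capitals, at bases 230 to 259 and 24 to 53 of the region.
Csf2: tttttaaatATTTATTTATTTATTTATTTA
Csf3: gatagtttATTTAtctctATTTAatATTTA

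Csf1r, the CSF1 receptor and a defining gene of macrophages, was at 1278 and 1210.3 in untreated wild type and at 1627 and 1635 with LPS. In the knock-in it was at 1280.1 and 1266 untreated and at 1304 and 1249.6 with LPS. Wild type with LPS was the highest group, and the other 3 groups overlapped. In wild type the mean rose 1.31-fold, from 1244 ± 47.9 to 1631 ± 6.24 (SD, n = 2 each), with a log2 change of 0.39 ± 0.047 (SE, limma adjusted p = 1.21e-07). In the knock-in the log2 change was 0.0040 ± 0.047 (SE, limma adjusted p = 0.951), with a 95% confidence interval of -0.093 to 0.10. The rise in wild type depended on the scaling between libraries: without scaling factors it was 0.10 (limma adjusted p = 0.0563), and after quantile normalization it turned to -0.33 (limma adjusted p = 3.81e-06). Without scaling factors the median of all genes stood at -0.30, and Csf1r lay 0.39 above it. After quantile normalization the median stood at -0.086, and Csf1r was at -0.25 relative to it. By rank, Csf1r was among the most abundant RNAs throughout, 55th to 73rd from the top of 23366 genes. Its gene span overlaps that of Hmgxb3 on the opposite strand in the GENCODE annotation, as that of Csf2 overlaps Gm12223. Spans include introns, and whether exons overlap was not examined. Since the strand of counting is not given, reads from a shared stretch could not be told apart.

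Csf2ra, the GM-CSF receptor alpha chain gene, was at 185 and 195 in untreated wild type, at 215 and 204 in wild type with LPS, at 186 and 192 in untreated knock-in, and at 91.3 and 106 in the libraries labelled knock-in LPS. Those last libraries lay below the other 6, which spanned 185 to 215. The mean fell in the knock-in from 189 ± 4.24 to 98.7 ± 10.4 (SD, n = 2 each), 1.92-fold, with a log2 change of -0.93 ± 0.058 (SE, limma adjusted p = 1.34e-12). In wild type the log2 change was 0.14 ± 0.058 (SE, limma adjusted p = 0.0388), a call that was lost without filtering (adjusted p = 0.138), without untreated replicate 1 (0.197) and without LPS replicate 1 (0.233) in the same limma test, and that turned to -0.15 without scaling factors and to -0.29 after quantile normalization. Relative to the median of all genes, the wild-type change of Csf2ra was 0.15 without scaling factors and -0.20 after quantile normalization. Between the genotypes with LPS the log2 difference was -1.08 ± 0.058 (SE, limma adjusted p = 2.70e-14). Itgax, an integrin gene used as a marker of dendritic cells, moved with it. The summed level of the 7 dendritic markers, nearly all of it Itgax, was 37.5 to 40.4 in untreated wild type, at least 49.5 in wild type with LPS, 34.9 to 37.7 in untreated knock-in and 4.90 to 5.50 with LPS in the knock-in. Of the 2 dendritic markers tested, Itgax fell (log2 change -2.76) and Xcr1 was not called in the knock-in. Cd209a had no read in 7 libraries, and Flt3, Zbtb46, Clec9a and Siglech were at 1.15 or lower in every library. The part of this in the Csf2ra difference was not tested.

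Csf2rb, the common beta chain gene, was at 195 and 187 in untreated wild type, 164 and 167 with LPS, 191 and 195 in untreated knock-in and 208 and 201 with LPS. Wild type with LPS was the lowest group and the libraries labelled knock-in LPS the highest. In wild type it fell by 0.20 ± 0.047 (SE) on the log2 scale (limma adjusted p = 6.36e-04), and the change was -0.50 without scaling factors and -0.55 after quantile normalization, while in the knock-in the change was 0.082 ± 0.047 (SE, limma adjusted p = 0.139). Relative to the median of all genes, the wild-type change was -0.17 in the main fit, -0.20 without scaling factors and -0.47 after quantile normalization.

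Csf2rb2 was at 241 and 234 in untreated wild type, 219 and 214 with LPS, 243 and 253 in untreated knock-in and 283 and 286 with LPS. Its groups had the same order as those of Csf2rb, with wild type with LPS lowest. In the knock-in it rose 1.15-fold, a log2 change of 0.20 ± 0.046 (SE, limma adjusted p = 6.89e-04). In wild type the log2 change was -0.13 ± 0.046 (SE, limma adjusted p = 0.0150), a call that was not made by edgeR (adjusted p = 0.0831) or DESeq2 (0.0528), with median-of-ratios scaling (0.0785), without untreated replicate 1 (0.0731) or without LPS replicate 2 (0.101). It was larger without scaling factors (-0.43, limma adjusted p = 2.17e-08) and after quantile normalization (-0.58, limma adjusted p = 8.80e-10). Relative to the median of all genes, Csf2rb2 was at -0.10 in the main fit, -0.13 without scaling factors and -0.49 after quantile normalization. Without scaling factors the larger fall was thus mostly that of the median. Between the genotypes with LPS both beta chain genes were higher in the knock-in, by 0.30 ± 0.047 for Csf2rb and 0.39 ± 0.046 for Csf2rb2 (log2, SE, limma adjusted p = 2.92e-06 and 4.21e-08).

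The beta chain genes are close copies, which bears on how reads are assigned to them. Their coding sequences of 2691 and 2637 bases were identical at 95.2% of 2631 aligned positions, with an identical run of 242 bases. Of all windows of 50 bases in their transcripts, 18.4% of those of Csf2rb and 19.4% of those of Csf2rb2 also occurred in the other gene, and the labels do not say how reads from such stretches were counted. The 60 coding bases at which they differ most, with the 13 differing bases in capitals, show where reads can be told apart.
Csf2rb, coding bases 304 to 363: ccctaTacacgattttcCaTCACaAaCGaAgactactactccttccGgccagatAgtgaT
Csf2rb2, coding bases 307 to 366: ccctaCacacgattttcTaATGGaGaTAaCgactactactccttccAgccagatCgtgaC

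Ratios within a library do not depend on scaling between libraries. The level of Csf2ra over that of Csf2rb was 0.949 and 1.04 in untreated wild type, 1.31 and 1.22 in wild type with LPS, 0.973 and 0.984 in untreated knock-in, and 0.439 and 0.527 in the libraries labelled knock-in LPS. The alpha chain therefore gained on the common beta chain with LPS in wild type and lost with LPS in the knock-in, with no overlap between those groups and the untreated libraries. The ratio of Csf2rb2 to Csf2rb moved over a narrower range, from 1.24 in an untreated wild-type library to 1.42 in a library labelled knock-in LPS. The level of Csf1 as a percentage of that of its receptor gene Csf1r was 0.529 and 0.539 in untreated wild type, 7.93 and 8.37 with LPS, 0.626 and 0.527 in untreated knock-in and 0.722 and 0.748 with LPS.

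**Figure D2:**
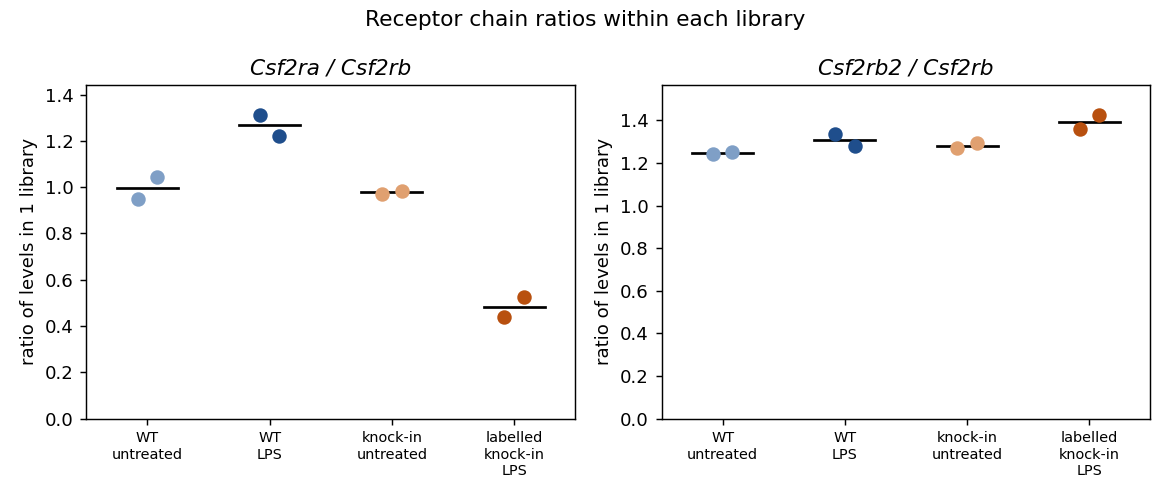
Ratio of levels of Csf2ra to Csf2rb (left) and of Csf2rb2 to Csf2rb (right) in each library (vertical axes, no unit), with points for libraries and lines for group means. On the left, the libraries labelled knock-in LPS lie at 0.439 and 0.527 and wild type with LPS at 1.22 and 1.31, on either side of the untreated libraries.

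Csf3r, the G-CSF receptor and a neutrophil gene also expressed by macrophages, was at 117 and 123 in untreated wild type, 137 and 137 with LPS, 124 and 126 in untreated knock-in and 156 and 159.8 with LPS. LPS groups lay above untreated groups in both genotypes. The log2 change was 0.19 ± 0.048 in wild type (SE, limma adjusted p = 0.00150) and 0.34 ± 0.048 in the knock-in (SE, limma adjusted p = 2.11e-06). Of its transcript's windows of 50 bases, 11.2% also occurred in another annotated gene, AC105061.2. In wild type the Csf3r change turned to -0.10 without scaling factors and to -0.086 after quantile normalization. Relative to the median of all genes, it was 0.20 without scaling factors and 1.28e-04 after quantile normalization. Neutrophil markers were also higher with LPS: 8 of the 10 measured rose in wild type, as did 8 of 10 in the knock-in. Their summed level was 375 to 386 in untreated wild type, 781 to 801 with LPS, 373 to 383 in untreated knock-in and 514 to 523 with LPS, and none of the 10 was at 0 in a whole group. Between the genotypes with LPS, 4 of the 10 were higher in the knock-in, as Csf3r was, and 6 were lower, beside 38.5% and 36.8% of all genes. Mean levels in wild type and knock-in with LPS were 30.5 and 61.7 for Mmp8, 2.37 and 3.20 for Cxcr2, 1.11 and 1.77 for Retnlg and 1.59 and 2.87 for Elane, named after their values were seen. Of the 6 lower markers, Ngp was at 290 and 156, S100a9 at 208 and 131 and Ltf at 133 and 86.8. S100a8 was at 91.3 and 57.3, Camp at 19.4 and 7.65 and Mpo at 12.7 and 10.5. The part of neutrophil RNA in the Csf3r values was not tested.

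**Figure D3:**
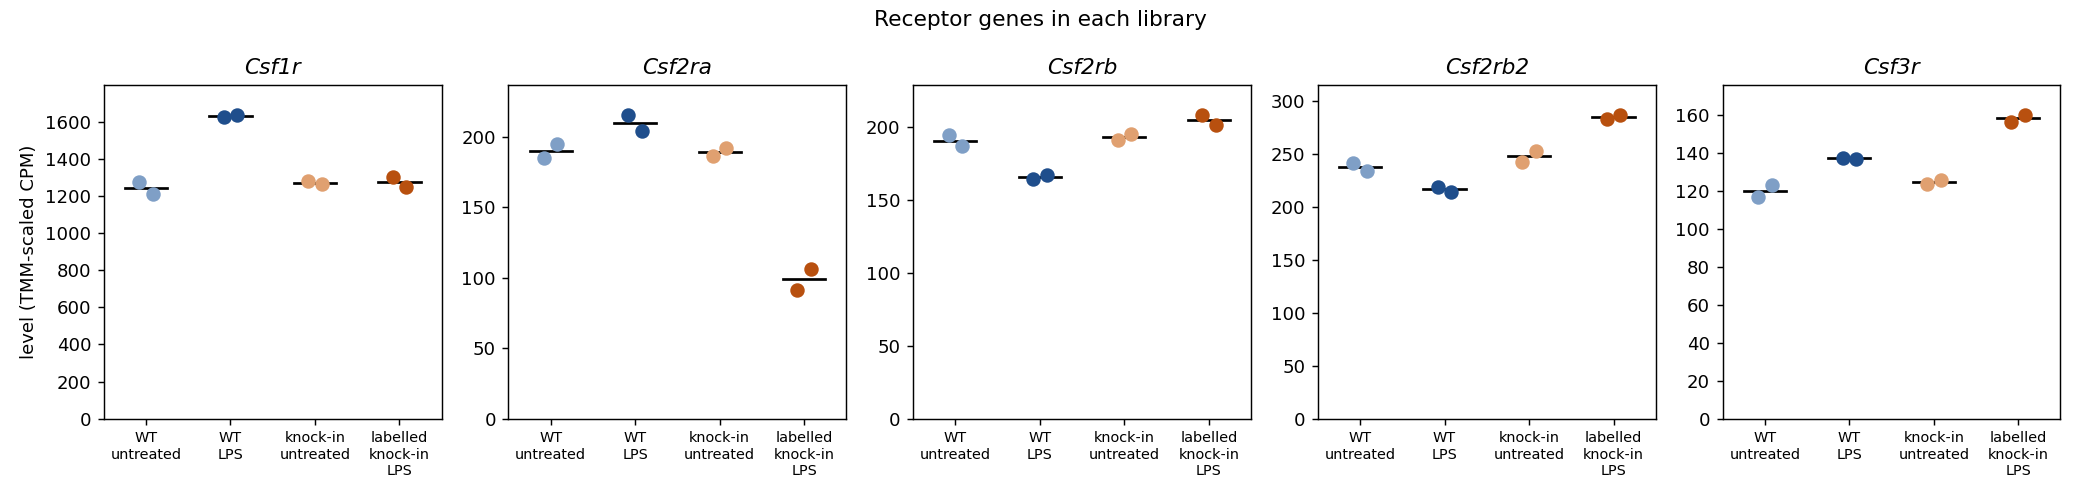
Levels of the receptor genes (vertical axes, TMM-scaled CPM, a scale of its own in each panel starting at 0) in the 4 groups, with points for libraries and lines for group means. Csf2ra in the libraries labelled knock-in LPS, at 91.3 and 106, is the lowest against its other groups.

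Levels of different genes were compared per kilobase of the GENCODE transcript with the longest coding sequence. In untreated wild type the order of mean levels per kilobase was Csf1r at 265, Csf2ra at 103, Csf2rb2 at 50.1, Csf2rb at 38.9, Csf3r at 34.5, Csf1 at 1.59, Csf2 at 0.133 and Csf3 at 0, and the libraries of neighbours did not overlap. With LPS in wild type, Csf1 reached 31.8, just under Csf2rb at 33.8, and Csf3r at 39.4 passed Csf2rb. With LPS in the knock-in, Csf2ra at 53.4 fell behind Csf2rb2 at 60.01. The lengths come from another build and from 1 transcript per gene, so these levels are approximate.

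Without LPS no difference between the genotypes was called at the 6 members measured above the filter in every group. Their limma adjusted p-values ran from 0.562 to 0.979, and 0.00839% of all genes tested were called. Csf3 had no read in any untreated library, so its test could show no difference. None of the 8 had an unadjusted limma p under 0.05, and edgeR and DESeq2 called 0 of the 8 as well. The log2 difference, knock-in minus wild type, was 0.12 for Csf1 with a 95% confidence interval of -0.061 to 0.30, and 0.034 for Csf1r with an interval of -0.064 to 0.13. For Csf2ra it was -0.0049 with an interval of -0.12 to 0.11. Csf2 had 10 reads in the untreated wild-type libraries against 0 in those of the knock-in, which was not separable in this test (log2 difference -0.15, limma adjusted p = 0.745). At levels this low, log2(value + 1) leaves room for a small difference only, so the test says little about Csf2.

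The LPS effect itself differed between genotypes at 7 of the 8 genes, 2 with a higher and 5 with a lower change in the knock-in, against 63.7% of all genes in the same interaction test (31.8% in each direction). Of the 6 members measured above the filter in every group, 5 were called, 2 higher and 3 lower. For Csf3r it was 0.15 ± 0.068 (log2, SE, limma adjusted p = 0.0600), short of the threshold. With edgeR and DESeq2 the interaction of Csf2 was not called (adjusted p = 0.875 and 0.0844), and edgeR did not call that of Csf3 (adjusted p = 1.00). Over the 8 members the median log2 change was 0.29 (wild type) and 0.053 (knock-in), beside -0.032 and 0.016 over all genes. Both LPS comparisons and both genotype comparisons share libraries, so their values are set side by side only.

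**Figure D4:**
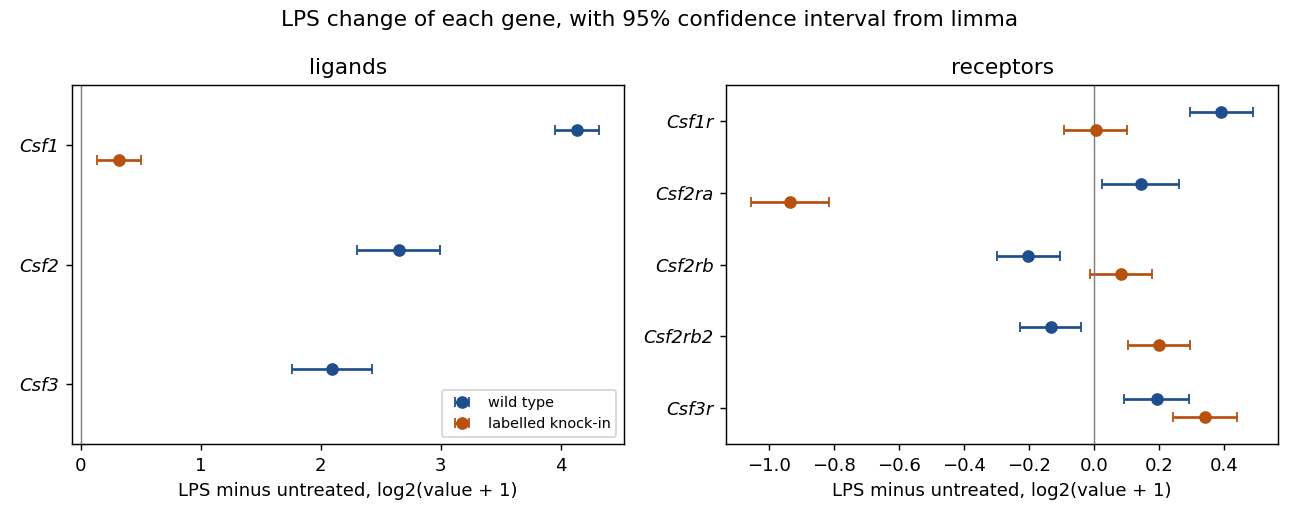
Change with LPS (horizontal axes, difference in log2(value + 1)) of the ligand genes (left) and receptor genes (right) for wild type and the labelled knock-in, with points for limma estimates and bars for 95% confidence intervals. Csf2 and Csf3 are drawn for wild type only, being at or under 3 reads a library in the knock-in. The intervals of the genotypes overlap for Csf3r and not for the other 5 genes drawn for both.

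The genes around the receptors were taken from 6 lists, whose medians stand beside -0.032 (wild type) and 0.016 (knock-in) over all genes tested. Calls with LPS in these and the marker lists stand beside 26.8% higher and 30.7% lower of all genes in wild type. In the knock-in these shares were 28.5% and 28.3%. Of 11 other ligands and chains, 5 passed the filter. Il3 had 0 reads, Il5 had 6, Il34, the other ligand of CSF1R, had 33 and Il5ra had 56 over all libraries. Il3ra, the alpha chain that pairs with the Csf2rb2 product, had a log2 change with LPS of 0.14 (wild type) and 0.13 (knock-in), with no call. Pdgfrb, a relative of Csf1r and a stromal gene, rose in both genotypes (1.46 and 0.46), Kit rose in wild type (0.63), Kitl, which encodes the KIT ligand, fell in the knock-in (-1.56), and Flt3l rose there (0.42). Kit is also a mast cell gene and is itself 1 of the 8 mast cell and basophil markers tested. Of these, 7 rose in each genotype, with Mcpt4 and Tpsb2 at 0 throughout. Kit was not among those that rose in the knock-in, where its mean level was 1.90 untreated and 1.40 with LPS. The summed level of that list was 37.7 to 38.2 in untreated wild type, 69.1 to 69.2 with LPS, 37.1 to 38.1 in untreated knock-in and 89.2 to 92.2 with LPS. The part of mast cell and basophil RNA in the value of Kit was not tested. Stromal markers were higher in the libraries labelled knock-in LPS, at a summed level of 70.6 to 71.6 beside 21.8 to 27.2 in the other 6, with 8 of 9 tested rising with LPS in the knock-in and 1 rising and 1 falling in wild type. Pdgfrb is itself on the stromal list and was the 1 marker that rose in wild type. Its mean levels were 0.728 and 3.75 in wild type and 1.05 and 1.82 in the knock-in, untreated and with LPS. The part of stromal RNA in the values of Pdgfrb, Kitl and Csf1 was not tested.

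Of 22 adaptors, kinases, phosphatases and sheddases that act at these receptors, 10 rose and 4 fell in wild type with LPS (median log2 change 0.084), and 6 rose and 4 fell in the knock-in (median 0.029). These 14 and 10 calls stand beside the 57.6% and 56.7% of all genes called in the same comparisons. Src, a kinase recruited by CSF1R, rose by 2.90 in wild type and by 0.24 in the knock-in. Adam17, the protease that sheds CSF1R from the cell surface, rose by 1.06 in wild type and was at -0.047 in the knock-in, not called. Gab3, an adaptor of CSF1R signalling, fell in wild type (-1.06), and Pik3r1, the regulatory subunit of PI3-kinase, rose there (0.72). In the knock-in, changes included Dok2 (-1.11), an adaptor that restrains kinase signalling, the kinase Fyn (-0.85) and the ubiquitin ligase gene Cblb (0.52). The split of this list depended on scaling: after quantile normalization or without scaling factors, 4 rose and 12 fell in wild type, and the signs of Tyrobp, Shc1, Gab2 and Plcg2 turned under both.

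The JAK-STAT list holds the kinases and transcription factors under these receptors and their inhibitors. Of its 13 genes 12 were tested, and 9 rose and 1 fell in wild type (median log2 change 1.42), while 7 rose and 1 fell in the knock-in (median 0.30). Socs3, the inhibitor that binds CSF3R and related receptors, lay between 2.19 and 2.43 in untreated wild type and between 955 and 969 with LPS, a log2 change of 8.19, and rose by 1.12 in the knock-in. Cish, a STAT5 target and inhibitor, rose by 4.44 in wild type and was not called in the knock-in (-0.22). Pim1, a kinase gene induced through STAT5, rose by 4.12 (wild type) and 0.77 (knock-in), and Socs1 by 2.89 and 1.24. Jak2, the kinase bound to the common beta chain, rose by 2.54 and 0.30, and Stat5a by 1.78 in wild type, with no call in the knock-in (0.061). With LPS, 8 of the 12 were lower and 1 higher in the knock-in than in wild type. Of all genes tested, 36.8% were called lower and 38.5% higher in that comparison. In the JAK-STAT list Jak1 turned sign in wild type after quantile normalization.

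Of 7 genes linked to GM-CSF signalling, 6 were tested. Ccl22, a chemokine of GM-CSF-treated macrophages, rose by 4.78 in wild type and fell by 0.68 in the knock-in, and Irf4, a transcription factor gene linked to the same state, rose by 2.20 and fell by 0.73. Pparg, which GM-CSF induces in alveolar macrophages, fell in both (-0.25 and -0.79). Bhlhe40 rose by 0.99 in the knock-in and was at -0.0095 in wild type, not called. In all, 4 rose and 1 fell in wild type (median log2 change 3.16), and 2 rose and 3 fell in the knock-in (median -0.45), counts that include Cish and Pim1 from the list above.

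Of 10 transcription factor genes known to act on CSF receptor genes, 9 were in the table and Spi1 was not analysed here. In wild type 3 rose and 5 fell (median log2 change -0.17), among them Ets2 (3.55), Cebpa (-2.12) and Cebpb (1.87). In the knock-in 3 rose and none fell (median 0.13): Cebpb (0.82), Cebpa (0.36) and Runx1 (0.13). Cebpa, a myeloid differentiation factor, thus fell with LPS in wild type and rose in the knock-in.

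Regulators of CSF mRNA decay, which bind or cut the mRNAs of the ligands, mostly rose in wild type. Of 8 genes, 6 rose and 1 fell there (median log2 change 0.86), led by Zfp36 (3.58), which encodes tristetraprolin, a binder of AU-rich elements, Zc3h12a (3.02), which encodes the RNase Regnase-1, Zfp36l2 (-1.74) and Zfp36l1 (1.20). In the knock-in 4 rose and 1 fell (median 0.15), led by Zc3h12a (0.46), Zfp36 (0.33), Zfp36l1 (0.27) and Elavl1 (0.19). Hnrnpd, which rose by 0.16 in wild type, turned sign without scaling factors and after quantile normalization. No gene of these 6 lists was called between the untreated genotypes.

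**Figure D5:**
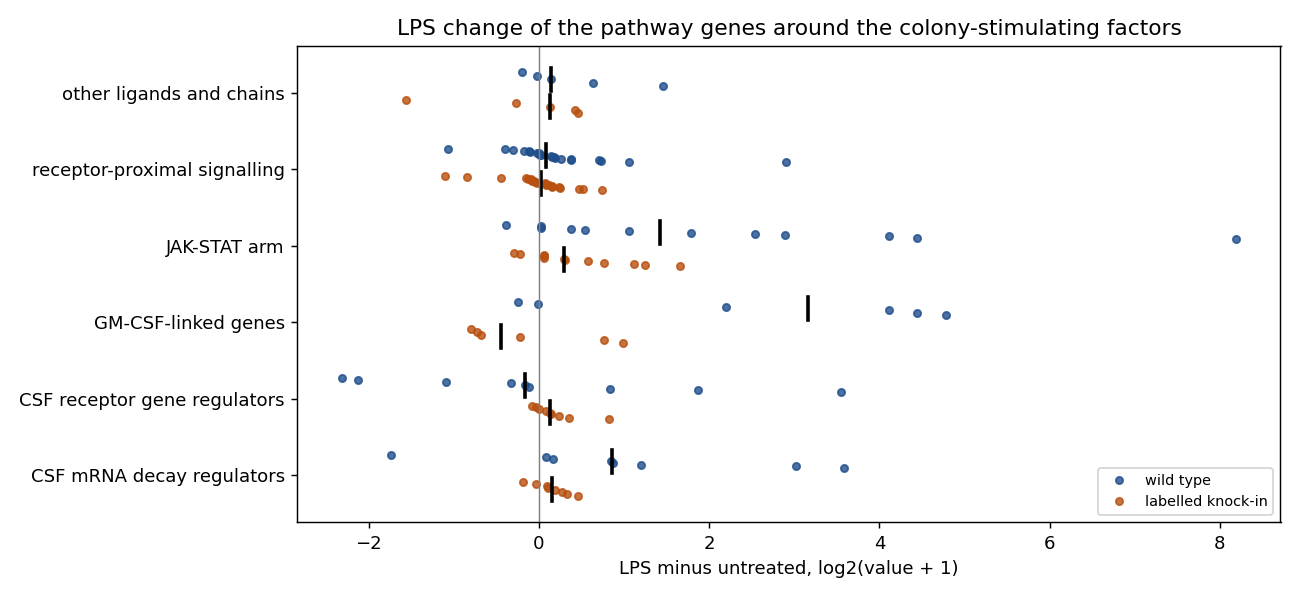
Change with LPS (horizontal axis, difference in log2(value + 1)) of each tested gene in the 6 lists (vertical axis), for wild type and the labelled knock-in, with black bars for medians. The JAK-STAT list has medians of 1.42 (wild type) and 0.30 (knock-in), and the point farthest right is Socs3 at 8.19.

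The genes whose pattern over the 8 libraries was closest to each ligand gene were found by the root mean square difference in log2(value + 1), centred on the gene mean, among 9572 or 9573 genes. For Csf1 they were Nfkbie, an inhibitor of NF-kB (0.11), Tlr2, a Toll-like receptor gene (0.11), and Il6, an inflammatory cytokine gene (0.12). For Csf2 they were Lad1 (0.096), Nfil3 (0.14) and Trim13 (0.15), and for Csf3 Rffl (0.072), Zfp263 (0.079) and Dyrk2 (0.11). Tlr2 had mean levels of 47.9 and 826 in wild type and 45.9 and 54.7 in the knock-in, untreated and with LPS. For genes as low as Csf2 and Csf3 the scale compresses the change, so that their nearest genes show smaller folds at higher levels.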

How the data were processed

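RNA was measured by sequencing in 8 libraries, 2 in each of 4 groups taken from the sample labels. The deposited signal values are gene read counts over library totals that the authors had scaled, as in TMM-scaled CPM, which was read from the values: each column steps in multiples of 1 read, and 100% of values above 0 were whole reads within 0.001. The submitters' processing notes name mm9, edgeR, bedtools and TopHat2 2.0.9. How reads were counted, on which strand and with which annotation is not known here. Sequences came from RefSeq (GRCm38.p6) and GENCODE.

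The main test was limma 3.58.1 (R 4.3.3), 2-sided, with a variance trend, on log2(value + 1). The filter kept 11919 of 23366 genes, those that reached 1 in 2 libraries or more. A single model of 4 group means had 4 residual and 19.1 prior degrees of freedom, and p-values were Benjamini-Hochberg adjusted over all genes kept in each of 5 comparisons. A group with 0 reads was set at a floor of 3 reads per library, and ratios against 1 to 3 reads carry 95% counting intervals. Floors and intervals cover counting error only. Recovered reads were also tested with edgeR 4.0.16 and DESeq2 1.42.0, alternatives added after seeing the data. edgeR called 6842 genes for LPS in wild type and DESeq2 6485. Scripts were tested on simulated data. The 8 genes were named throughout. Up to 4 genes per list with the largest called change, and the 3 genes nearest in pattern to each of the 8, were also named. Members and lists were chosen with earlier results of these data known. Of the 3 promoters printed, that of Csf3r was chosen after its motif match was seen. A few list genes are not reported here.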

Additional observations from a re-analysis of the deposited data

Results flagged for a closer look

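The LPS effect differed between genotypes, by limma's interaction test, at 7 of the 8 colony-stimulating factor genes, against 63.7% of all genes tested. Csf2 and Csf3 passed the filter only through wild type with LPS, which fixed their direction. Of the 6 members measured above the filter in every group, 5 were called. In the same comparison edgeR called neither Csf2 nor Csf3, and DESeq2 did not call Csf2. The values are knock-in minus wild type for the log2 change with LPS, over 2 libraries a group. For the ligand genes the difference was -3.81 for Csf1 (adjusted p = 3.40e-18), -2.62 for Csf2 (1.17e-09) and -2.07 for Csf3 (3.11e-08), those of Csf2 and Csf3 resting on the reads of wild type with LPS. For the receptor genes it was -1.08 for Csf2ra (4.67e-11), -0.39 for Csf1r (2.15e-05), 0.28 for Csf2rb (6.27e-04) and 0.33 for Csf2rb2 (9.40e-05). All 7 draw on the libraries labelled knock-in LPS, which differ from the other 6 in Xist and Y-linked RNA, and the part of that difference in these values cannot be told apart from genotype and LPS.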

How the results depend on the processing

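Over 21 alternatives, log2 changes of single members kept direction and side of the threshold in 603 cases, lost a call in 14, gained a call in 4 and turned sign in 18, and counts of members called stayed within 1.5 times in 83 cases and moved in 2. The count for LPS in wild type ran from 5 to 8 on leaving out a library, at 5 without either wild-type LPS library, which puts Csf2 and Csf3 under the filter. No value could be had for them then or with the filter raised to 5. After quantile normalization Csf1r turned to -0.33 for LPS in wild type, -0.029 for LPS in the knock-in, -0.025 between untreated genotypes, 0.28 between genotypes with LPS and 0.30 in the interaction, and Csf2ra and Csf3r turned to -0.29 and -0.086 for LPS in wild type. Without scaling factors Csf2ra and Csf3r were at -0.15 and -0.10 there, Csf1r at -0.043 for LPS in the knock-in and Csf2rb at -0.0045 between untreated genotypes, and edgeR put Csf1r at -0.0063 for LPS in the knock-in. The cause was not tested. Leaving out libraries, uncalled changes ran from -0.027 to 0.035 for Csf1r with LPS in the knock-in, and between untreated genotypes from -0.0057 to 0.073 for Csf1r, -0.044 to 0.034 for Csf2ra and -0.0096 to 0.049 for Csf2rb. The Csf1r interaction was lost without scaling factors (-0.14, limma adjusted p = 0.0574). The Csf3r interaction was called without filtering, without untreated wild-type replicate 1, without scaling factors and after quantile normalization (limma adjusted p = 0.0496, 0.0236, 2.43e-05 and 7.83e-05).

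Of the genes called for LPS in wild type, 46.6% were higher, and 35.3% after quantile normalization and 17.3% without scaling factors. Between genotypes with LPS this share was 51.1% and 67.6% without scaling factors, and in the interaction 50% and 70.7%. Between untreated genotypes limma called 1 gene of all tested, 0 without filtering, 12 with only these groups, 18 with a robust trend, 483 and 5 without untreated wild-type replicates 1 and 2, 2 without untreated knock-in replicate 1 or without the libraries labelled knock-in LPS, 4 without scaling factors, and DESeq2 called 31. Samples share only a replicate number: deviations of same-numbered libraries correlated at -0.0998, 0.119, -0.082 and 0.0379 over 9692 genes. With the replicate number as a block, 8, 4, 0, 8 and 7 members were called in the 5 comparisons, as without the block. Depth limits Csf2 and Csf3 outside wild type with LPS, where they had 10 reads or fewer in a group.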

Other observations

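The genes nearest in pattern to the receptor genes, by the same root mean square difference over 8 libraries, lay closer than those of the ligand genes. This difference is not scaled to the size of a gene's changes, which were smaller for the receptor genes. The distances therefore do not compare likeness of pattern between receptor and ligand genes. For Csf2ra the nearest genes were Fasn, the fatty acid synthase gene (0.064), Atp2a3, a calcium pump gene (0.066), and Lrp8, a lipoprotein receptor gene (0.070). Fasn had mean levels of 44.1 and 47.3 in wild type, untreated and with LPS, and of 43.9 and 21.2 in the knock-in. For Csf1r they were Arfgap3 (0.029), Fam188a (0.030) and Myo1c (0.030), for Csf2rb Lrrc33 (0.018), Wbp1l (0.021) and Adipor2 (0.024), for Csf2rb2 Mvb12b (0.026), Inpp5k (0.026) and Psmf1 (0.030), and for Csf3r Eif3g (0.026), Timm23 (0.028) and Abcf1 (0.030).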
